A study of Homo sapiens with 20 samples.

Results

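Proliferating cells were taken from the stem cell-derived β (SC-β) cell stage, day 21 of pancreatic differentiation, as the barcodes that carried at least 1 unique molecular identifier (UMI, 1 counted RNA molecule) of MKI67 and at least 1 of TOP2A. They were 650 of the 11739 cells with 1500 to 5000 detected genes and under 15% mitochondrial UMIs. In the WT library they were 349 of 6128 cells and in the GPX2 KO library 301 of 5611 cells. The members were chosen by measured values, so the levels of MKI67 and TOP2A in them describe the choice and are not results.

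The study asked how the antioxidant enzyme GPX2 bears on pancreatic and other endodermal fates of human pluripotent stem cells. Both libraries came from HUES8, an established human embryonic stem cell line that was driven through the same stepwise pancreatic protocol in spheroids, dissociated and run on a droplet single-cell platform. The WT group was unedited, and the KO group was a clonal line from which GPX2 had been removed with CRISPR/Cas9. Per the study's methods, KO clones were made in HUES8-iCas9, a derivative in which doxycycline switches on Cas9, and whether the WT library carried that transgene is not given in the sources used here. Each genotype had 1 library at day 21, so no test between genotypes or between cells was possible, and every interval below is an exact 95% interval for counting error only.

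MKI67 encodes Ki-67, which coats mitotic chromosomes. TOP2A untangles replicated DNA, and CENPF joins kinetochores, the structures that attach chromosomes to the spindle. These RNAs accumulate from S phase to mitosis, so cells in early G1 or out of the cycle carry few of them. In the developing pancreas the progenitor epithelium divides, whereas cells that switch on NEUROG3 and become hormone cells mostly leave the cycle.

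CENPF, which the choice did not use, had a UMI in 97.1% of the WT members (interval 94.8 to 98.6) and in 95.7% of the KO members (92.7 to 97.7). Among cells with neither MKI67 nor TOP2A the share was 7.54% in WT and 5.83% in KO. In endocrine-like cells, which were taken as the cell type that should lack it, the share was 3.59% in WT and 1.15% in KO at median depths of 6425.5 and 9054 UMIs. By choice, a median member held 2 UMIs of MKI67 in each genotype (range 1 to 17 in WT and 1 to 15 in KO). For TOP2A the median was 5 in WT (1 to 26) and 4 in KO (1 to 30), and for CENPF it was 8 in WT (0 to 47) and 5 in KO (0 to 48). The third marker was thus present in nearly every cell picked by the other pair, in either genotype.

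Just inside the threshold stood 29 WT and 33 KO cells with 1 UMI of each gene, of which 86.2% and 84.8% held CENPF. Just outside stood 98 WT and 74 KO cells with MKI67 but no TOP2A, of which 46.9% and 68.9% held CENPF. Another 271 WT and 195 KO cells had TOP2A but no MKI67, and 44.3% and 62.1% of them held CENPF.

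The members were deeper than the rest, with a median of 7906 UMIs against 5569 in WT and 10657 against 7938 in KO. Their median mitochondrial share was 4.13% in WT and 4.39% in KO, close to the 4.67% and 4.66% of the other cells. Scrublet, a doublet caller, marked 9 WT members and 1 KO member. The libraries shared 7 barcodes among their cells, and no barcode was a member in both. GPX2 itself was scarce, at 8.25 CPM (counts scaled to 1e6 UMIs, 5.23 to 12.4) in WT members and 1.28 CPM (0.349 to 3.28) in KO members, where 4 UMIs in 3 cells remained. In the other cells GPX2 stood at 2.51 CPM in WT and 0.966 CPM in KO. Those 4 UMIs lay in cluster 16, at 3.76 CPM (1.02 to 9.62) in its members and 4.41 CPM (2.91 to 6.42) in its other cells, close to the 3.71 CPM (1.36 to 8.08) in the WT members of cluster 1. Over all members GPX2 was lower in KO and not at 0.

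The promoters of the cell cycle genes with the largest excess in the members are shown because many such genes share short motifs at their starts. They are the 250 bases before the start of the 3 G2/M genes and 2 S phase genes with the largest ratio of member to other cells, taking the smaller ratio of both genotypes, among list genes at 50 CPM or more in members of both and with exactly 1 window in the RefSeq table (build GRCh38.p14). List genes on a chromosome whose promoters are not reported here were left out of this choice. NDC80 holds microtubules at the kinetochore (chr18:2571307-2571556, plus strand), GTSE1 binds microtubules in G2 and mitosis (chr22:46296620-46296869, plus strand), DLGAP5 stabilises spindle fibres (chr14:55191586-55191835, minus strand), RAD51AP1 assists recombination repair (chr12:4538640-4538889, plus strand) and CENPU is a centromere protein (chr4:184734097-184734346, minus strand). Each is written 5′ to 3′ on the gene's strand, and capitals mark the letters of the motifs searched on both strands, which were CHR (TTTGAA), the CCAAT box (CCAAT) and an E2F motif (TTCCCGC).
NDC80: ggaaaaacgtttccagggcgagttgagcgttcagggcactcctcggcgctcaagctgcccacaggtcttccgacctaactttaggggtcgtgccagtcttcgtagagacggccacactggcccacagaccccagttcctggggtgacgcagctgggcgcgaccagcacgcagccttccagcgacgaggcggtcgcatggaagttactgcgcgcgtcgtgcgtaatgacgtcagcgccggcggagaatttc
GTSE1: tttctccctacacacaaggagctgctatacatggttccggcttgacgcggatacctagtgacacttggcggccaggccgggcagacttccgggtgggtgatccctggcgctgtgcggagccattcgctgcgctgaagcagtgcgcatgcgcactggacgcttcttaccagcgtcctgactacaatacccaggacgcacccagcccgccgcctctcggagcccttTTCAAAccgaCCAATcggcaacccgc
DLGAP5: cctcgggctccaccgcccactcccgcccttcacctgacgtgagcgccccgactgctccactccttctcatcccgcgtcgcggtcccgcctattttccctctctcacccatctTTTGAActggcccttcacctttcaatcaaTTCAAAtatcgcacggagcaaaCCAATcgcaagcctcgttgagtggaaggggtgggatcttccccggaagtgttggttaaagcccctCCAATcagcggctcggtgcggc
RAD51AP1: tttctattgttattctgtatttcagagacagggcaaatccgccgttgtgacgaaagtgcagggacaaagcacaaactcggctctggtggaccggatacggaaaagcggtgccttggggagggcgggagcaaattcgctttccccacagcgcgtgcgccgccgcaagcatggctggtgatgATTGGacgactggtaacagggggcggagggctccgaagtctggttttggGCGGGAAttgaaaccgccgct
CENPU: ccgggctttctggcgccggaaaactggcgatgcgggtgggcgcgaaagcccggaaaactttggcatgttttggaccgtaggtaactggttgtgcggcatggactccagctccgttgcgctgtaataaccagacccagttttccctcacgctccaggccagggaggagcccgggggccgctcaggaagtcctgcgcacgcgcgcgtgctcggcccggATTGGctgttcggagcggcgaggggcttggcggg
GTSE1 held a CHR match that began 26 bases before its start and a CCAAT match at 16 bases. In DLGAP5 the CHR matches lay at 138 and 109 bases and the CCAAT matches at 87 and 22 bases. RAD51AP1 held CCAAT at 70 and E2F at 21 bases, CENPU held CCAAT at 34 bases, and these letters were not in the NDC80 window. Over 56 windows of 43 of the 52 G2/M list genes, CHR letters occurred in 46.4%, against 9.30% of 43 windows of 32 of the 43 S phase genes and 13.3% of all 34959 windows. E2F letters occurred in 32.6% of the S phase windows, 7.14% of the G2/M windows and 5.53% of all windows. CCAAT occurred in 64.3% of G2/M, 65.1% of S phase and 11177 of all 34959 windows. CHR and CCAAT together were found in 37.5% of G2/M windows, 6.98% of S phase windows and 4.69% of all windows. A match is a string of letters and not a shown binding site.

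The first comparison asked how many cells cycled in each genotype. Proliferating cells made up 5.70% of WT cells (5.13 to 6.30) and 5.36% of KO cells (4.79 to 5.99). The KO share was 0.942 times the WT share (0.805 to 1.10), so no difference was detectable with these limits. Detection of a pair of scarce RNAs depends on depth, and the KO library was deeper. When every cell was thinned to 4000 UMIs, which left out 925 WT and 214 KO cells, 4.21% of WT cells (3.68 to 4.79) and 2.78% of KO cells (2.36 to 3.25) qualified. The ratio was then 0.660 (0.533 to 0.816).

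The upper limit on genes moved the share the other way. Cells above 5000 genes were members in 22.0% of 150 WT cells (15.7 to 29.5) and in 30.6% of 828 KO cells (27.4 to 33.8). With the limits widened to at least 1000 genes, no upper limit and under 20% mitochondrial UMIs, 5.29% of 7460 WT cells and 8.40% of 6653 KO cells qualified, a ratio of 1.59 (1.39 to 1.81). Thinning those cells as well gave 4.83% in WT (4.28 to 5.44) and 4.40% in KO (3.90 to 4.93), a ratio of 0.910 (0.765 to 1.08). The order of the genotypes therefore depended on the depth and the gene limit, and neither genotype was shown to cycle more.

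**Figure D1:**
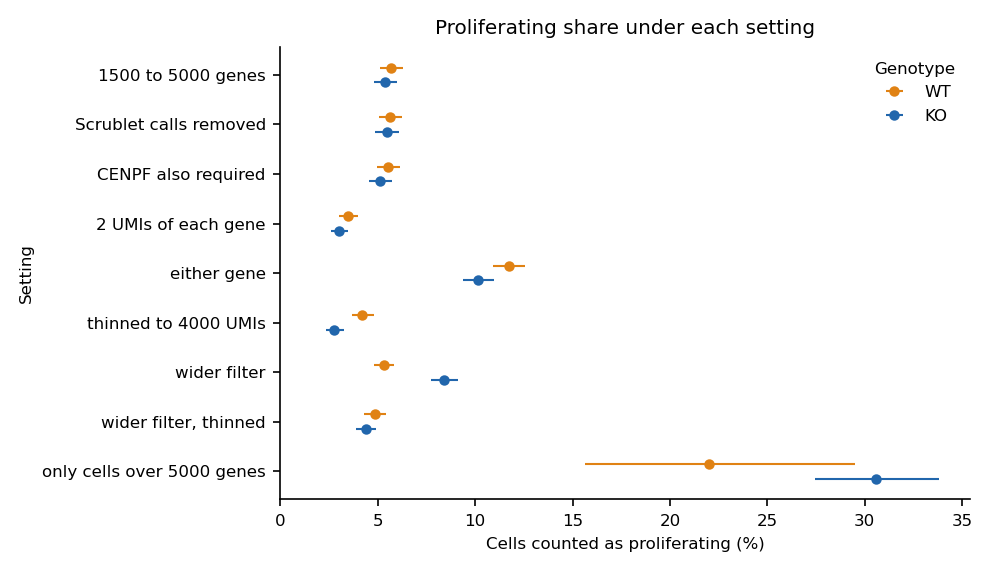
Share of cells counted as proliferating (x axis, percent) in WT (orange) and KO (blue) under 9 settings, with points for the share and bars for exact 95% binomial intervals that cover counting error only. The KO point lies below WT after thinning (2.78% against 4.21%) and above it with the wider filter (8.40% against 5.29%).

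The second comparison asked which lineages the cycling cells belonged to. Cells without a UMI of MKI67, TOP2A or CENPF were clustered with the cycle genes set aside, and every other cell took the cluster most frequent among its 20 nearest such cells. This gave 18 clusters. A cluster was named only when enough markers of a class stood out, and 8 remained unnamed and are called by number and leading genes.

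In WT, 217 members lay in cluster 1 and 92 in cluster 2, which held 62.2% and 26.4% of them. Cluster 1 was led by the metallothioneins MT1E, MT1G and MT2A with CLIC5 and MYOCD, and cluster 2 by LTB, COLEC12, CTSE, IL32 and CLDN18. Another 12 WT members lay in cluster 14, 12 in the endocrine progenitor-like cluster 10, 11 in cluster 12 and 3 in cluster 5. Those first clusters, 1 and 2, held 40.3% and 17.1% of all WT cells.

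In KO, 141 members lay in cluster 14 and 101 in cluster 16, which held 46.8% and 33.6% of them. Cluster 14 was led by SGCZ, DCDC2, VCAN, SPINK1 and SEMA3C, and cluster 16 by CST1, SOX17, RSPO3 and PCAT14. The hepatic-like clusters 17 and 18 added 13 and 20 members, cluster 6 (ANXA1, COL3A1, TFAP2B, WNT6, DCN) added 18, and cluster 15, led by the acinar genes CLPS and RBPJL, added 6. Clusters 6, 15, 16, 17 and 18 held no WT cell, and cluster 1 held 28 KO cells with 1 member.

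Clusters that held at least 5% of the KO members held 12 WT members (3.44% of them), all in cluster 14. Conversely, clusters that held at least 5% of the WT members held 1 KO member (0.332%). Because each genotype was 1 library, a cluster made of 1 genotype and a difference between libraries cannot be told apart. When the cycle genes were kept and all cells were clustered together, a change of both choices at once, 1 cluster took 303 WT members (86.8%) and 121 KO members (40.2%).

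**Figure D2:**
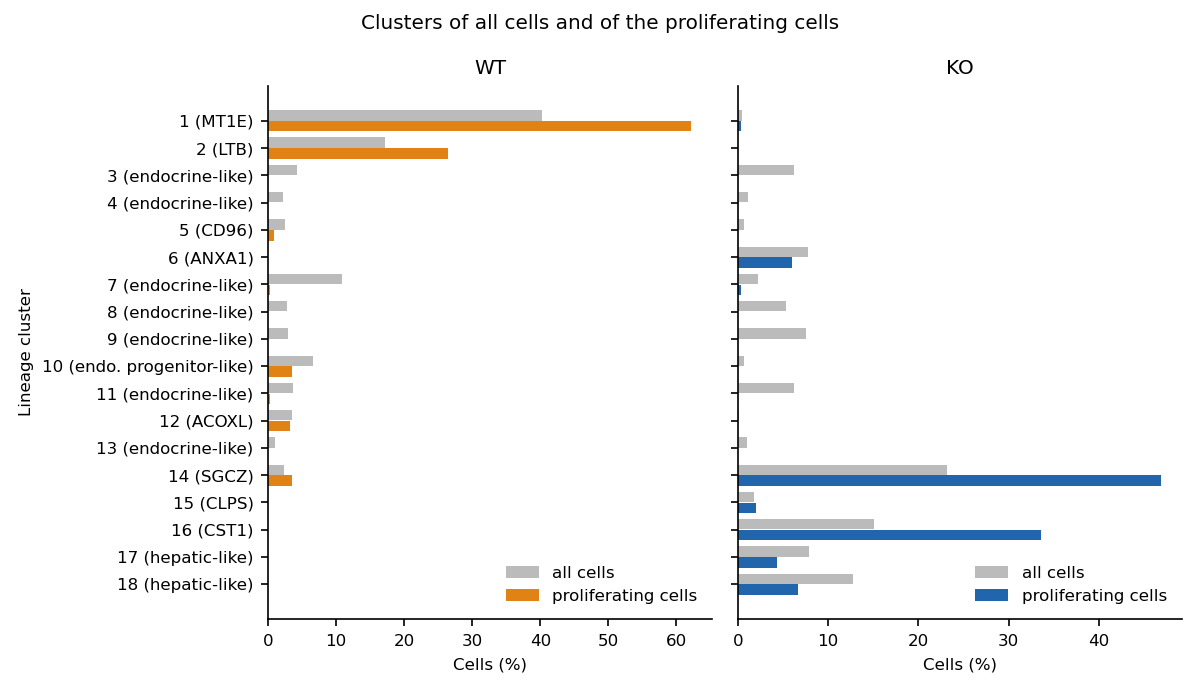
Percentage of all cells (grey) and of proliferating cells (coloured) in each of the 18 lineage clusters, with WT on the left and KO on the right. WT members concentrate in clusters 1 and 2 (62.2% and 26.4%) and KO members in clusters 14 and 16 (46.8% and 33.6%).

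The share of each lineage that was cycling separated hormone cells from the rest. In the 7 endocrine-like clusters 2 of 1698 WT cells (0.118%, 0.0143 to 0.425) and 1 of 1659 KO cells (0.0603%, 0.00153 to 0.335) were members. In the other clusters the members were 347 of 4430 WT cells (7.83%, 7.06 to 8.66) and 300 of 3952 KO cells (7.59%, 6.78 to 8.46). Over the limit of 5000 genes the endocrine-like share was higher, with 3 of 60 WT cells (5.00%, 1.04 to 13.9) and 17 of 300 KO cells (5.67%, 3.34 to 8.92), of which 11 KO members lay in cluster 3 and 4 in cluster 9. With those cells added, 5 of 1758 WT (0.284%) and 18 of 1959 KO endocrine-like cells (0.919%) were members, against 8.34% and 11.96% in the other clusters. The endocrine-like members over the limit had median depths of 21169 UMIs in WT and 21413 in KO, and the part of doublets among them was not tested. Inside the limit, after thinning, the shares outside the endocrine-like clusters were 5.95% in WT and 3.95% in KO. The endocrine-like cells were not shallower, with median depths of 6425.5 and 9054 UMIs against 5418.5 and 7683.5 elsewhere.

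Both WT members among the endocrine-like cells were marked by Scrublet. The first held 51 UMIs of CHGA and 360 of INS beside 5 of MKI67 and 9 of TOP2A, and the second held 33 of CHGA and 6 of INS beside 3 and 6. The KO member, which was not marked, held 27 of CHGA and 8 of INS beside 1 of MKI67 and 3 of TOP2A. Single-gene detection in endocrine-like cells was 1.06% for MKI67 and 2.30% for TOP2A in WT, and 0.241% and 1.02% in KO. Chromogranin A, encoded by CHGA, fills the secretory granules of hormone cells, and of the cells with at least 5 UMIs of it 11 of 2009 were members in WT and 5 of 1783 in KO. Of the cells with at least 20 UMIs of INS, 4 of 1239 were members in WT and 2 of 1376 in KO.

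The endocrine progenitor-like cluster 10 cycled at an intermediate rate in WT, with 12 of 404 cells (2.97%, 1.54 to 5.13), and 0 of 38 KO cells were members there, which allows a share of up to 7.89% at 3 counts and 9.25% by the exact interval. Its members held NEUROG3, the switch of endocrine fate, in 41.7% of cells at 118 CPM (56.6 to 217), and its target NEUROD1 at 189 CPM (108 to 306). No member of the larger clusters 1, 2, 14 or 16 held a UMI of NEUROG3.

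In KO the cells of clusters 17 and 18, named hepatic-like, held 33 members among 1156 cells (2.85%, 1.97 to 3.99). This was below the 10.9% of cluster 14 (9.21 to 12.7) and the 11.9% of cluster 16 (9.81 to 14.3), with intervals that do not overlap. The order held after thinning, at 1.44% against 5.63% and 5.96%. Cluster 16 also had an excess of 4 of 15 hepatic genes (FGB, FGG, APOA1 and TBX3) and stayed unnamed through its leading genes. The contrast is thus between clusters as named, and not between all cells with hepatic RNA and the rest. In WT, clusters 1, 2 and 14 were alike at 8.80% (7.71 to 9.98), 8.78% (7.14 to 10.7) and 8.28% (4.35 to 14.01), although thinning left 7.30% of cluster 1 and 4.81% of cluster 2. Cluster 14, the only cluster with 12 or more members in each genotype, cycled at 8.28% in WT and 10.9% in KO, intervals that overlap. After thinning the order was reversed, at 6.98% in WT (3.24 to 12.8) and 5.63% in KO (4.42 to 7.05), again with overlap.

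**Figure D3:**
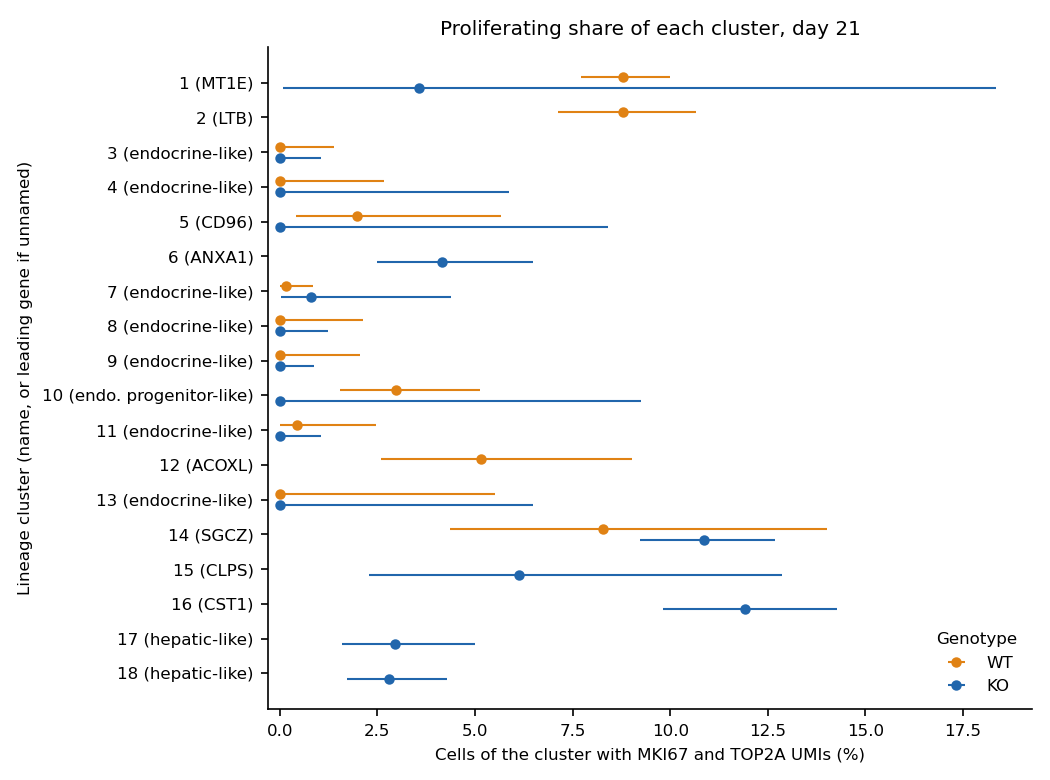
Percentage of the cells of each cluster that were proliferating, for clusters with at least 20 cells of a genotype (WT orange, KO blue), with exact 95% binomial intervals for counting error. Endocrine-like clusters sit near 0, clusters 1 and 2 of WT near 8.8% and clusters 14 and 16 of KO at 10.9% and 11.9%.

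The lineage genes of the cycling cells differed between clusters, and for some genes members also differed from other cells of their cluster. The WT members of cluster 1 carried SPINK1 at 748 CPM (706 to 791), SOX2, a transcription factor of the anterior gut and stomach, at 343 CPM (315 to 373), and ONECUT1, a factor of early pancreas and liver, at 210 CPM (188 to 233). PDX1, the master factor of pancreatic fate, was found in 27.2% of them at 42.1 CPM (32.7 to 53.4). The other WT cells of cluster 1 held SPINK1 at 491, SOX2 at 282, ONECUT1 at 149 and PDX1 at 43.3 CPM. The WT members of cluster 2 carried CLDN18, a tight junction gene of stomach and lung, at 562 CPM (513 to 614) and SOX9, a factor of duct and progenitor cells, in 39.1% of cells at 59.3 CPM (44.3 to 77.7). These cells also had most of the GPX2 of WT members, at 18.2 CPM (10.4 to 29.6). The other WT cells of cluster 2 held GPX2 at 4.92 CPM, a ratio of 3.71 (1.88 to 7.05), and SOX9 at 52.3 CPM.

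The KO members of cluster 14 carried SOX2 at 201.6 CPM (179 to 226), ONECUT1 at 129 CPM (111 to 148) and PDX1 at 37.5 CPM (28.2 to 48.8, in 29.8% of cells). In the 12 WT members of the same cluster SOX2 stood at 353 CPM (241 to 498), ONECUT1 at 209.5 CPM (126 to 327) and PDX1 at 44.1 CPM (12.02 to 113). SPINK1 stood at 1170 CPM (1116 to 1227) in these KO members against 463 CPM (334 to 626) in the WT ones, and SERPINA1, a liver-secreted protease inhibitor, at 124 CPM (107 to 143) against 0 UMIs. The KO members of cluster 16 had little PDX1 (3.76 CPM, 1.02 to 9.62) and carried the plasma protein genes FGB at 904 CPM (847 to 963) and APOA1 at 1473 CPM (1401 to 1548). In the same cells SOX17, a factor of endoderm and bile duct, reached 303 CPM (271 to 338) in 95.05% of cells, and the intestinal factor CDX2 139 CPM (118 to 163) in 71.3%. APOA1 and SOX17 were found in the same cell in 112 of 301 KO members (37.2%) and in 0 of 349 WT members, which allows up to 1.05% by the exact interval. The pair was not confined to members, with 807 of 5310 other KO cells (15.2%) and 0 of 5779 other WT cells. In the KO library the 18 members of cluster 6 held APOA1 in 5.56% of cells and no UMI of SOX17.

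The smaller groups differed again. The 13 KO members of cluster 17 held FGB at 1998 CPM (1766 to 2252), and AFP, the fetal liver protein, at 1126 CPM (953 to 1320) but in only 30.8% of cells. The 20 KO members of cluster 18 held FGB at 740 CPM (623 to 872) beside ONECUT1 at 315 CPM (240 to 405) and no UMI of SOX17. The 18 KO members of cluster 6 held the collagen gene COL3A1 at 836 CPM (710 to 978) and TFAP2B at 488 CPM (393 to 599), each in 88.9% of cells, and no UMI of FGB or PDX1. PDX1 and NKX6-1, a pair held by β-competent progenitors and by β cells, met in 5 members of each genotype (1.43% in WT and 1.66% in KO) against 7.03% and 8.06% of the other cells. Most other cells with the pair were endocrine-like, at 347 of 1696 such cells in WT and 398 of 1658 in KO. Outside the endocrine-like clusters the pair was found in 1.44% of WT members (0.469 to 3.33) and 1.45% of other WT cells (1.10 to 1.86), and in 1.67% of KO members (0.543 to 3.85) and 0.821% of other KO cells (0.555 to 1.17), intervals that overlap. PDX1 and SOX9 met in 6.88% of WT members (4.46 to 10.1) and 3.99% of KO members (2.08 to 6.86). In the other cells, endocrine-like ones included, it was 2.27% in WT (1.90 to 2.68) and 2.73% in KO (2.31 to 3.21).

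**Figure D4:**
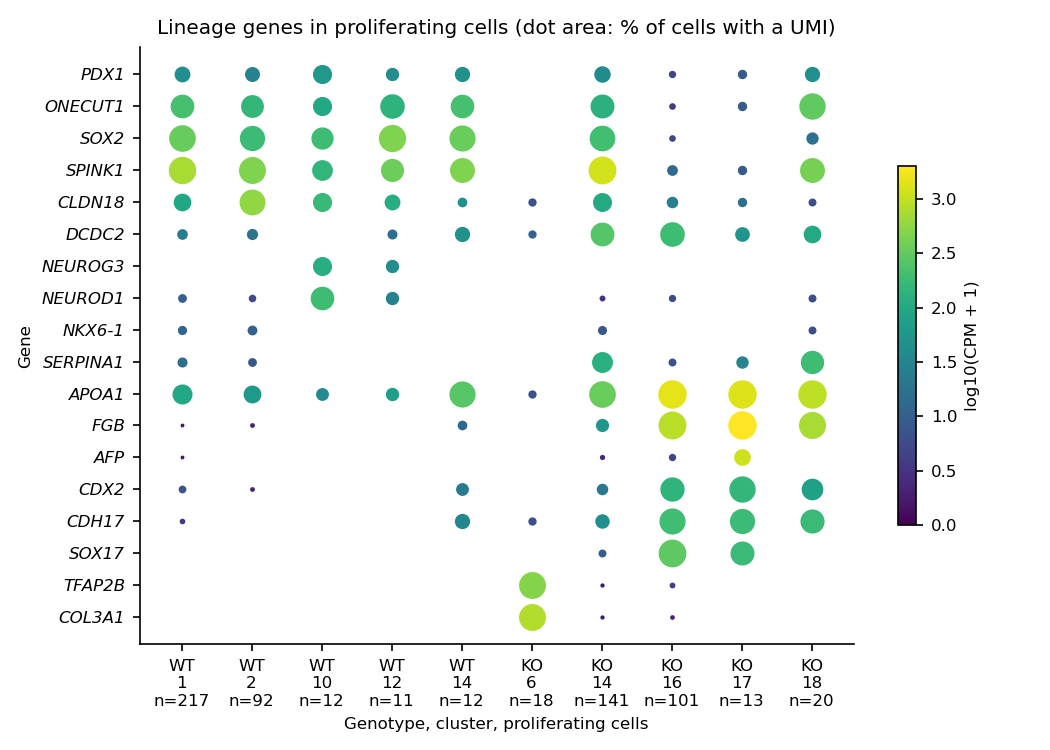
Levels of 18 lineage genes (y axis) in the proliferating cells of each genotype and cluster with at least 11 members (x axis), where colour is log10(CPM + 1) and dot area is the percentage of cells with a UMI. COL3A1 and TFAP2B mark cluster 6 of KO, SOX17 clusters 16 and 17 of KO, NEUROG3 cluster 10 of WT, and SOX2 and SPINK1 clusters 1, 2, 10, 12 and 14.

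INS, the insulin gene, stood at 1179 CPM in WT members against 17996 CPM in the other WT cells, and at 559 against 25462 CPM in KO. Inside a cluster the gap was smaller, with 1100 against 1481 CPM in cluster 1 of WT and 548 against 646 CPM in cluster 14 of KO. Droplets of the KO file with 10 to 100 UMIs, which hold free RNA and no cell, carried 44659 CPM. The same droplets held MKI67 at 17.7 CPM and TOP2A at 67.1 CPM, against 22.3 and 47.5 CPM over all KO cells past the filter. CENPF, which the choice did not use, stood at 73.1 CPM in the droplets and 74.4 CPM over those cells. The 300.1 and 593 CPM of MKI67 and TOP2A in the KO members follow from the choice. The WT file was filtered to cells, so its free RNA was not measured, and the part of free RNA in the shares was not tested.

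The third comparison asked which other RNAs were higher in the members than in the other cells of their genotype. A gene was measured with at least 50 CPM on either side and was called at a ratio of 2 or more with an interval that excluded 1. Of 4941 genes in WT 5.59% were called higher and 7.08% lower, and of 4791 in KO 6.05% and 7.28%. Of the G2/M list, 47 of 49 measured genes were called higher in WT and 45 of 47 in KO, and the median log2 ratio was 4.30 and 4.27, against 0.07 over all genes. For the S phase list it was 14 of 17 in WT and 18 of 20 in KO, with medians of 1.97 in each. The files held 52 G2/M and 43 S phase genes besides those of the choice. In the other cells of either genotype only 8 and 3 of them reached 50 CPM. Most measured list genes thus passed the limit through the members, where they are high. With no minimum level the medians were 4.31 in WT and 4.15 in KO for G2/M, and 1.51 and 1.87 for S phase. The choice by MKI67 and TOP2A favours cells late in the cycle, so these counts describe the choice as well as the cells.

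UBE2C, a ubiquitin ligase partner that ends mitosis, had 318 CPM in WT members against 6.62 in the others (48.0-fold, 41.4 to 55.8) and 306 CPM against 5.34 in KO (57.3-fold, 49.6 to 66.4). GTSE1 had 180 against 3.38 CPM in WT and 98.5 against 2.58 CPM in KO. RRM2, which makes deoxynucleotides in S phase, had 131 against 9.89 CPM in WT (13.2-fold, 11.4 to 15.4) and 168 against 11.8 CPM in KO (14.3-fold, 12.6 to 16.1). The G2/M genes that were not called were CTCF and GAS2L3, and GAS2L3 stood at a ratio of 0.543 (0.453 to 0.646) in KO.

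Outside the lists the 10 genes with the largest ratio in both genotypes were DEPDC1, CEP55, KIF4A, ASPM, CCNA2, KIF18B, PLK1, NCAPG, KIF14 and PBK. DEPDC1 was 46.1-fold higher in WT (34.7 to 61.8) and 45.1-fold in KO (32.6 to 63.2), and CEP55, which completes cytokinesis, 52.8-fold (39.2 to 72.1) and 42.2-fold (31.0 to 58.2). PLK1, a master kinase of mitosis, was 27.5-fold higher in WT (21.5 to 35.4) and 33.1-fold in KO (25.6 to 43.0).

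Genes around the entry into the cycle moved less. None of the measured G1 cyclins and kinases, 3 in WT and 4 in KO, was called, and CCND1 stood at 1.38 (1.23 to 1.53) in WT and 1.19 (1.05 to 1.35) in KO. Against other cells of the same cluster CCND1 stood at 0.755 (0.644 to 0.882) in cluster 1 of WT and 1.02 (0.873 to 1.19) in cluster 2. In KO it stood at 0.747 (0.624 to 0.888) in cluster 14 and 0.740 (0.586 to 0.924) in cluster 16. The excess of CCND1 was thus not seen inside these clusters. RBL1, a pocket protein that is itself made in dividing cells, was called higher at 2.91 (2.51 to 3.37) in WT and 3.85 (3.32 to 4.44) in KO. Of the p53 targets 0 of 7 were called in WT and 0 of 6 in KO. Of 12 antioxidant genes in each genotype 0 were called higher and 1 lower, GCLM, a subunit of the enzyme that limits glutathione synthesis, at 0.347 (0.258 to 0.458) in WT and 0.295 (0.217 to 0.392) in KO. The other cells here include the endocrine-like ones. Against other cells of the same cluster, 0 of 11 measured antioxidant genes were called in clusters 1 and 2 of WT and 14 of KO. In cluster 16 of KO it was 0 of 12. Over all genes in these 4 clusters 4.41 to 5.24% were called higher and 0.279 to 0.842% lower. A count of 0 among so few genes is near those shares and says nothing particular about antioxidant genes. The part of lineage in the GCLM ratio was not tested.

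Hormone cell lists were lower in the members. Of the 14 general endocrine genes 14 were called lower in WT and 13 in KO, with median log2 ratios of -3.66 and -4.04, and the 14th, RFX6, stood at 0.504 (0.450 to 0.563) in KO. All 4 measured enterochromaffin genes and all 5 alpha genes were called lower in each genotype. Of the beta list 5 of 5 were called lower in WT and 4 of 5 in KO. Of the pancreatic progenitor list 1 gene was called higher and 1 lower of 6 in WT, and 0 of 5 were called in KO. Of the hepatic list 0 were called higher, and 2 of 4 were lower in WT and 4 of 11 in KO. SPINK1 at 2.22 (2.11 to 2.34) and ONECUT1 at 2.10 (1.91 to 2.31) were called higher in WT. In KO it was SOX17 at 2.59 (2.31 to 2.90) and PDGFRA, a receptor of mesenchyme and early endoderm, at 2.21 (1.93 to 2.51). The other cells here include the endocrine-like ones. Within cluster 1 of WT, SPINK1 stood at 748 against 491 CPM and ONECUT1 at 210 against 149 CPM. In cluster 16 of KO, 0 of 4 measured genes of the biliary list, which holds SOX17, were called. Of the general endocrine list 0 were called in clusters 1, 2, 14 and 16, with 2, 2, 3 and 4 measured. Cluster 2 had 1 of 2 beta and 1 of 3 alpha genes called lower. The part of lineage in these ratios was not tested.

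To set lineage aside, members were compared with the other cells of the same cluster in the 4 clusters with at least 50 members, which were 1 and 2 in WT and 14 and 16 in KO. Of 3556 genes measured in each, 146 (4.11%) were called higher in every one and 0 (0%) lower in every one. Of the 57 S phase or G2/M list genes measured, 48 were among the 146, and the other 98 were in neither list. The limit of 50 CPM on either side applied here as well, so genes could again enter through the members alone. TUBA1B, an α-tubulin, was higher by 6.52-fold in cluster 1, 5.30-fold in cluster 2, 4.74-fold in cluster 14 and 4.85-fold in cluster 16. The histone gene HIST1H4C was higher by 5.67-, 4.07-, 5.01- and 6.94-fold in the same order, and the repair genes FANCD2 and BRCA1 were also called in all.

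CCND2, a G1 cyclin, was lower in the members of every cluster, at 0.448, 0.5002, 0.442 and 0.505 times the other cells, with each interval below 1. Ribosomal protein genes, a group picked after these values were seen, were slightly lower, and 68 of the 81 measured had an interval below 1 in all 4 clusters, against 198 of all 3556 genes (5.57%). Their median log2 ratio was -0.22, -0.21, -0.22 and -0.20, against 0.02 to 0.03 over all genes. CPM are shares of a cell's RNA, so a rise of the cycle genes lowers other shares, and its part in this result was not tested.

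The fourth comparison asked where in the cycle the members stood. Summed over the members, S phase list RNA was 2353 CPM in WT and 3158 CPM in KO, and G2/M list RNA without the genes of the choice was 10085 and 8134 CPM. The ratio of G2/M to S phase UMIs was 4.29 in WT (4.17 to 4.40) and 2.58 in KO (2.52 to 2.64). A median WT member had 1946 CPM of S phase and 9558 CPM of G2/M RNA, and a median KO member 2891 and 6160 CPM. G2/M RNA exceeded S phase RNA in 94.3% of WT members (91.3 to 96.5) and 83.7% of KO members (79.1 to 87.7), and in 94.2% and 82.2% after thinning. It also did so in 71.3% of the other WT cells and 68.2% of the other KO cells. Among endocrine-like cells that were not members the shares were 82.4% in WT and 83.5% in KO. An excess of G2/M over S phase RNA therefore does not by itself place a cell in G2 or mitosis. In WT 36 and in KO 75 members had log2 ratios of the 2 sums within 0.5 of equality, so the classes are a range and not types.

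The KO ratio stayed lower in each of the settings tried, although its size moved. Members chosen after thinning gave 5.16 in WT and 3.25 in KO, and those with at least 2 UMIs of each gene 5.18 and 3.64. In cluster 14 alone it was 5.46 in WT (4.68 to 6.39, 12 cells) and 2.28 in KO (2.20 to 2.36, 141 cells). Over the clusters with at least 11 members the ratio ran from 3.90 to 6.09 in WT and from 2.28 to 3.53 in KO, with no overlap. The KO members were deeper, by the medians given above, and the part of depth was not tested beyond these settings.

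**Figure D5:**
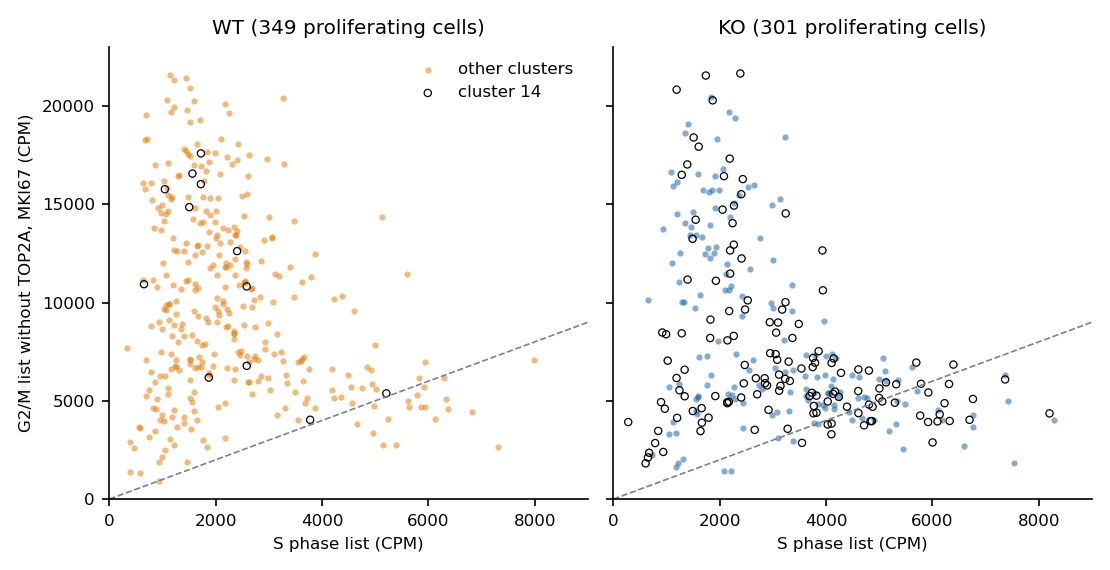
S phase list RNA (x axis, CPM) against G2/M list RNA without MKI67 and TOP2A (y axis, CPM) in each proliferating cell, with WT on the left and KO on the right. Black circles mark cluster 14 and the dashed line marks equal values. More KO cells lie low on the right, where 83.7% of cells are above the line against 94.3% in WT. The line is not a border between phases, since G2/M RNA also exceeded S phase RNA in 68.2% of other KO and 71.3% of other WT cells, not drawn.

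The last comparison asked which genes differed between KO and WT members. Of 4764 measured genes 3.55% were called higher in KO and 4.09% lower. The members also lay in different clusters in each genotype, so over all members a change within a lineage and a change of lineage cannot be told apart, and the same ratio in the other cells is given beside these values. Inside cluster 14, with 141 KO and only 12 WT members, 156 of 5213 genes (2.99%) were called higher in KO and 470 (9.02%) lower, with a median log2 ratio of -0.18. In the other cells of cluster 14, 76 of 4420 genes (1.72%) were called higher and 83 (1.88%) lower. A gene was measured at 50 CPM on either side, which few UMIs reach in 12 cells. Genes high there by counting error can enter and be called lower, and their part in the 470 was not tested. Among the members of cluster 14, 1 of 5 measured hepatic genes was called higher and 0 of 2 stomach genes were called, and 1 of 3 intestinal genes was higher and 1 lower. In the same members 4 of 22 S phase genes were called higher (median log2 ratio 0.59) and 18 of 50 G2/M genes lower (-0.84), under the same limit. Over all members, 8 of the 15 hepatic genes in the files reached 50 CPM in either genotype. Of these 7 were called higher in KO members, beside 9 of 10 in the other cells. Genes high in KO alone pass that limit through KO, which favours such calls. FGB had 466 CPM in KO and 1.08 CPM (3 UMIs) in WT members, a ratio of 433 (148 to 2101), beside 405 (301 to 560) in the other cells. In the members of cluster 14 its ratio was 5.19 (0.906 to 207), from 84 UMIs in KO and 1 in WT. APOA1 had 789 against 87.9 CPM (8.98-fold, 7.88 to 10.3), and 6.37-fold in the other cells.

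SOX17 had 358 UMIs in KO members and 0 in WT members, at least 106-fold higher against a floor of 3 UMIs over the WT members (exact lower limit 86.1). COL3A1 had 158 UMIs against 0, at least 47.0-fold higher by the same floor (exact lower limit 37.8). Of the 12 intestinal genes 4 were measured and 2 were called higher, as in the other cells. These were CDH17 at 104 against 2.51 CPM (41.6-fold, 19.9 to 104) and CDX2 at 67.2 against 4.66 CPM (14.4-fold, 8.25 to 27.5). The sucrase gene SI, outside that list and found in absorptive gut cells, had 117 UMIs against 0. Of 8 stomach genes only 2 were measured and both were lower, CLDN18 at 0.239 (0.202 to 0.283) and SOX2 at 0.349 (0.305 to 0.398), beside 0.188 and 0.339 in the other cells. TFF1 of the same list did not reach the limit over the members, and was among the leading genes of the KO-only cluster 17 at 170 CPM.

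The 10 genes highest in KO members included COL3A1, SI, FAM162B, AC019117.1, SOX17, ANXA13, FGB, PCDH15 and PCAT14. The 10 lowest included LTB, AOC1, PCDH19, BAALC, MT1E, SIM1, CNTNAP5, MT1G and PDE1A. LTB had 0 UMIs in KO and 130 in WT members, at least 48.6-fold lower by the same floor (ratio at most 0.0257 by the exact interval). MT1E and MT1G, metallothioneins that bind zinc and copper, stood at 0.0611 (0.0368 to 0.0961) and 0.0854 (0.0511 to 0.135), beside 0.130 and 0.106 in the other cells. In the members of cluster 14 MT1E stood at 0.0232 (0.00742 to 0.0623). BAALC and SIM1 were lower by more in members (0.0611 and 0.0615) than in the other cells (0.496 and 0.495), and their intervals did not overlap. The other cells include endocrine-like ones, so the lineages compared differ. Inside cluster 14 BAALC had 6 UMIs in KO members and 1 in WT members (0.371, 0.0450 to 17.0). SIM1 had 4 and 0 there, too few to show a fall.

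Over all members, of 20 S phase genes 19 stood above 1 in KO members (median log2 ratio 0.38), and 1 was called, GINS2 of the replication helicase, at 2.66 (1.99 to 3.61). Of 50 G2/M genes 7 stood above 1 with a median of -0.43, and 1 was called lower, GAS2L3, at 0.427 (0.344 to 0.527). The median over all genes was -0.12. CDK6, a kinase of G1, was called higher at 5.68 (4.45 to 7.34), beside 3.27 (3.06 to 3.50) in the other cells. DUT, which clears dUTP, was called at 2.09 (1.75 to 2.51) and stood at 1.05 in the other cells. TXN, thioredoxin, was called at 2.47 (2.22 to 2.74) beside 1.68 (1.63 to 1.73), the 1 call among 11 antioxidant genes, and BTG2, an antiproliferative p53 target, at 0.495 (0.400 to 0.610) beside 0.749.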

How the data were processed

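Droplet single-cell libraries of WT and GPX2 KO cells at day 21 were used. Day 6 and day 8 bulk libraries, ATAC-seq and the day 8 single cells were not used here. Per the file headers and methods, the authors made the deposited UMI counts, whole numbers without normalization, with Cell Ranger 7.1.0, the version in the headers of both matrices, while the study's reporting summary names another (bcl2fastq 2.20 and build GRCh38 from the submitters' processing notes). The WT file held 8911 barcodes and the KO file 1285152, unfiltered. The study's limits on genes and mitochondrial UMIs left 6128 and 5611 cells, which in WT equals the study's number and in KO exceeds it by 1. They held 37074512 and 46596224 UMIs.

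Scrublet calls (95 WT and 110 KO cells) were kept and left out as an alternative. Cells without MKI67, TOP2A and CENPF were clustered in scanpy 1.11.5 (10000 counts per cell, 2000 variable genes without S phase and G2/M list genes, 30 components, 20 neighbours, Leiden resolution 1), without integration, and other cells took their nearest neighbours' cluster. A cluster was named when at least 3 of a class's markers reached 100 CPM and a 2-fold excess and its leading genes did not go against the class. This naming rule was set after the clusters were seen. CPM are of summed UMIs. Ratios carry exact conditional intervals, levels exact Poisson and shares exact Clopper-Pearson intervals at 95%, from SciPy 1.17.1, and a count of 0 allows up to 3 counts. PCR duplicates were removed by UMI. Thinning drew 4000 UMIs per cell. No test was made, with 1 library per genotype. The scripts were checked on simulated data. Named genes were the fixed lists, the 10 leading genes per comparison (at least 100 UMIs over the members for KO against WT) and the 5 leading genes per cluster. The members and lists were chosen with earlier results of these data known. GPX1 was not analysed here. Some genes that the rule names are not reported here.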

Additional observations from a re-analysis of the deposited data

Results flagged for a closer look

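The cells over the upper gene limit, which the comparisons leave out, held a larger share of proliferating cells than those inside it, at 22.0% of 150 WT cells (15.7 to 29.5) and 30.6% of 828 KO cells (27.4 to 33.8). They made up 8.35% of the members under the wider limits in WT and 45.3% in KO. In KO 102 of 183 such cells of cluster 14 (55.7%) and 64 of 127 of cluster 16 (50.4%) were members, against 11 of 150 (7.33%) of the endocrine-like cluster 3. CENPF had a UMI in 96.4% of the KO members over the limit and 100% of the WT members over it. Their median depth was 17703 UMIs in KO and 15904 in WT, and the part of doublets was not tested.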

How the results depend on the processing

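No paired analysis was possible because each genotype had 1 library at day 21 and no test was made. Of 104 alternative values for 24 results, 61 stayed inside the interval or within 1.5 times and 43 did not. The share was 11.7% in WT and 10.2% in KO with either gene, 3.48% and 3.01% with 2 UMIs of each, 4.21% and 2.78% after thinning, 8.40% in KO with the wider filter, and 4.83% and 4.40% with the wider filter and thinning, the last chosen after seeing the data. The ratio of the shares was 1.59 with the wider filter and 0.660 after thinning. Endocrine-like members were 0% in WT without Scrublet calls, both of members and of endocrine-like cells, 0% of KO members at a Leiden resolution of 0.5 and 0% of KO endocrine-like cells with 2 UMIs of each. The share outside endocrine-like clusters was 5.95% in WT and 3.95% in KO after thinning, and 4.76% and 4.28% with 2 UMIs of each. With cycle genes kept and all cells clustered together, 86.8% of WT and 40.2% of KO members lay in clusters shared with the other genotype. The median log2 ratio of the S phase list in WT was 1.51 with no minimum level and 2.19 with the mean of per-cell CPM. Against other cells of the same clusters it was 1.30 for S phase in KO, and 3.77 in WT and 3.69 in KO for G2/M. With no minimum level 1082 genes were higher and 984 lower in KO members, and scaling by the median ratio moved the split from 169 and 195 to 191 and 167. The ratio of G2/M to S phase RNA was 5.16 in WT and 3.25 in KO after thinning, 5.18 and 3.64 with 2 UMIs of each, 5.46 and 2.28 in cluster 14 and 2.51 in KO with the wider filter, all chosen after seeing the data. The cause of these moves was not tested.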
